A study of Mus musculus with 43 samples.

Results

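Disease-associated microglia (DAM) genes were examined in the retinal transcriptome after laser-induced choroidal neovascularization (CNV). The 10 genes were Trem2, Tyrobp, Clec7a, Lpl, Cst7, Itgax, Spp1, Lgals3, Gpnmb and Cd68, chosen by name, and they make up 10 of the 54532 genes of the deposited table. All 10 had enough reads to be tested, among 18197 genes tested. Retinas came from C57BL/6J mice that were 9 weeks old at the laser lesion, and each library was a pool of 2 lasered retinas from 2 animals of one group. Short-chain fatty acids (SCFA) were given in the drinking water as 67.5 mM acetate, 40 mM propionate and 25 mM butyrate, from before the lesion until euthanasia, and control mice had the laser lesion alone. The weights per litre stated beside the propionate and butyrate concentrations do not match them, so that these 2 doses are uncertain. The 43 libraries were 4, 3 and 3 male controls, 3, 5 and 3 SCFA-treated males, 3, 3 and 3 female controls and 5, 4 and 4 SCFA-treated females on day 3, day 7 and day 14 after the laser (days post-laser, dpl), in this order. Every group was lasered, and the libraries hold whole retina, so that cell number and RNA per cell cannot be told apart in any of the values.

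DAM are a state that microglia enter near damaged neurons, plaques or photoreceptor debris. TREM2, a receptor for lipids and apoptotic cells, signals through the adaptor TYROBP (DAP12) and is required for the full state, in which genes for phagocytosis, lysosomes and lipid handling are switched on while homeostatic genes such as P2ry12 and Tmem119 are lowered. In the injured retina and in the subretinal space the same genes mark microglia and macrophages that gather at the lesion, and several of them are also used by other cells: Gpnmb by melanocytes and the retinal pigment epithelium (RPE), Lpl by neurons and glia, and Spp1 by ganglion cells.

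Read totals ran from 14826957 to 21507527, with a median of 17683615. All 12 homeostatic microglia markers had reads in every library, for example P2ry12 with a median of 49 reads and Tmem119 with 59. Markers of neutrophils, monocytes and macrophages differed. The neutrophil gene Ly6g had no read in any of the 43 libraries, Ly6c2 had none in 30 and at most 3 in the others, and Ccr2 had none in 16 and at most 16. Of the other neutrophil genes, Mpo had none in 41 and Retnlg none in 31. S100a8 had none in 15 and at most 22, and S100a9 none in 17 and at most 15. Plac8 had none in 10 and at most 29, while Mrc1, F13a1 and Ms4a7 had reads in every library. All 7 pigment cell and all 6 RPE markers had reads in every library. The deposited table holds 31 libraries in a first run of columns and 12 in a second one, and 5 of the 10 genes were lower in the second, led by Lgals3 (log2 difference -1.23) and Tyrobp (-0.94), against 26.4% of all genes lower, so that the run was a term of each fit. Female control replicate 2 at 7 dpl held reads of Y-linked genes (38.8 CPM in sum, with CPM the reads scaled to a common library size), which no other of the 22 libraries labelled female did and which reached 137 to 294 CPM in the 21 male libraries. For SCFA in females at 7 dpl, Gpnmb and Trem2 are given with and without this library. Other contrasts of its group are given with it, some also in fits that leave out each library or 3 together. At 3 dpl, SCFA-treated female replicate 2 stood apart by its RPE genes (Rpe65 166 CPM) and male control replicate 1 by Spp1.

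Levels are given as CPM, and per kb of exon where genes are compared with each other. Spp1, which encodes the secreted matrix protein osteopontin, was the most abundant with a median of 18 CPM per kb (range 11.4 to 81.4). It was above the next gene, Tyrobp (median 7.29 CPM per kb), in 43 of 43 libraries, although their ranges overlapped. Tyrobp in turn exceeded Gpnmb, a transmembrane glycoprotein of lysosomes and melanosomes, in 43 of 43 libraries. From there the order was close. Gpnmb (2.42 CPM per kb), Cd68 (1.88), Lgals3 (1.59), Lpl (1.27) and Trem2 (0.893) followed each other, with the higher gene ahead in 30, 34, 29 and 36 of 43 libraries, so that neighbours in this stretch changed places between libraries. Trem2 was above Clec7a (0.508 CPM per kb), the receptor Dectin-1, in 42 of 43. Cst7 (0.316 CPM per kb), which encodes the cathepsin inhibitor cystatin F, and Itgax (0.0864), the integrin CD11c, were lowest. Cst7 had 0 to 37 reads per library and Itgax 0 to 30, with 3 reads or fewer in 12 and 10 libraries, a level equal to 0.134 to 0.246 CPM, and changes of these 2 genes could be detected only if large at this depth.

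**Figure D1:**
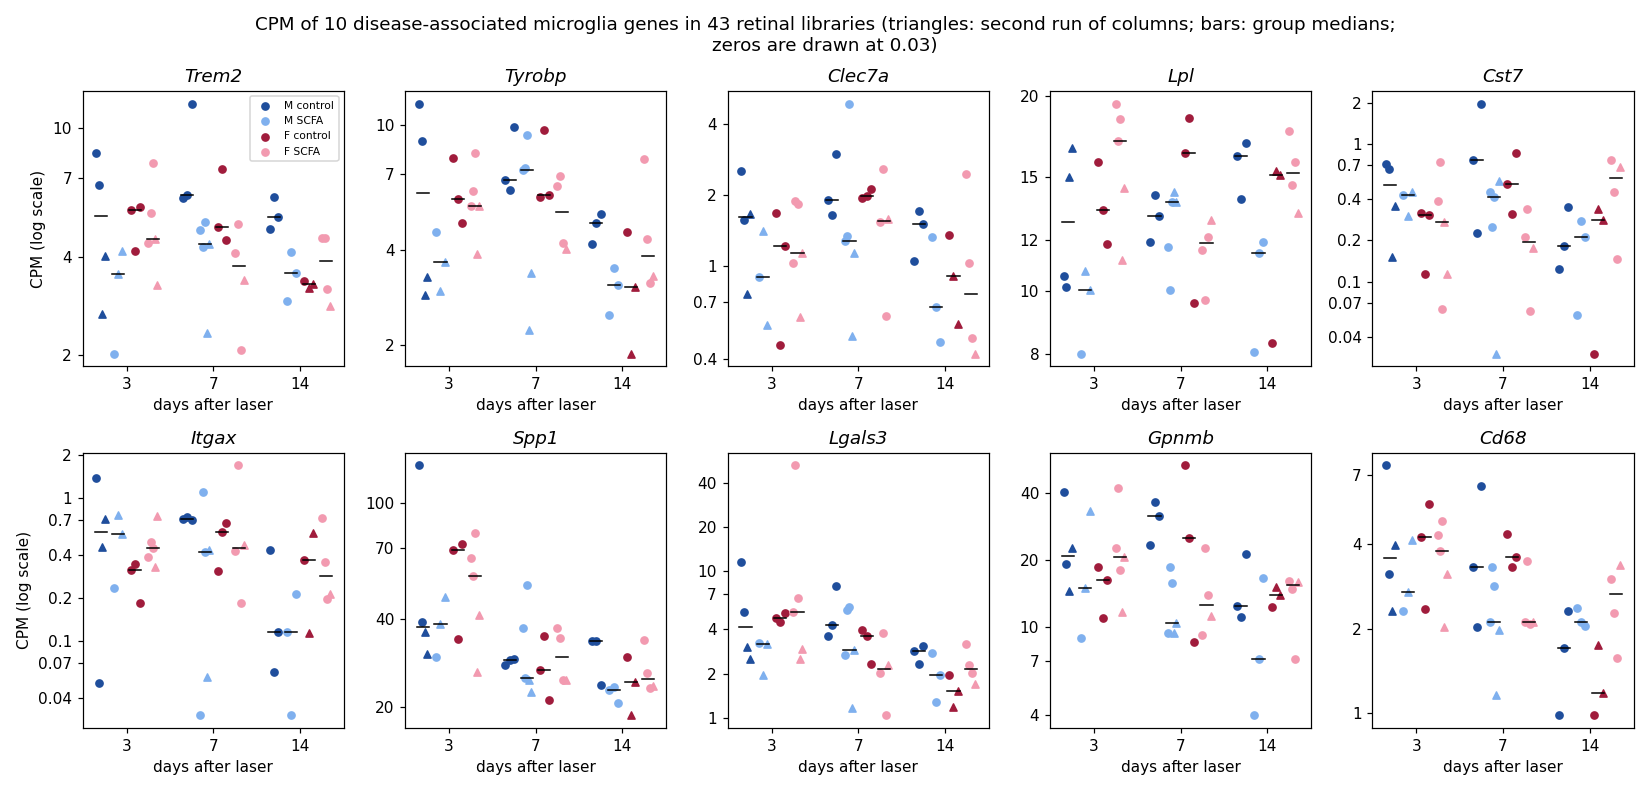
CPM on a log scale for each of the 10 genes in the 43 libraries, by days after laser, with 1 point per library, colours for sex and treatment, triangles for the second run of columns and bars for group medians; zeros are drawn at 0.03 and each panel has its own scale. The highest Spp1 values, up to 134 CPM, lie at 3 dpl, and 1 SCFA-treated female library at 3 dpl holds Lgals3 at 53.0 CPM against at most 11.6 CPM in all others.

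The sequences around the start sites of 4 of the genes with a match to the letters searched are given from RefSeq (GRCm38.p6, 300 bases, gene strand, 5′ to 3′). The window of Lgals3, which also carries results below, held no match and is not printed. RefSeq windows were found for 8 of the 10 genes, in 10 windows, while Tyrobp and Lpl had none. Capitals mark GAGGAAGT, the core bound by the myeloid factor PU.1, in Spp1, and TGANTCA in the others, each searched on both strands. TGANTCA is a loose form of the AP-1 site TGA(C/G)TCA, with any base in the middle. The match printed for Trem2, TGAATCA, is not the AP-1 site itself. Spp1 is on chromosome 5 (chr5:104434861-104435160, plus strand), Trem2 on chromosome 17 (chr17:48346151-48346450, plus strand), Gpnmb on chromosome 6 (chr6:49036268-49036567, plus strand) and Cd68 on chromosome 11 (chr11:69666121-69666420, minus strand).
Spp1: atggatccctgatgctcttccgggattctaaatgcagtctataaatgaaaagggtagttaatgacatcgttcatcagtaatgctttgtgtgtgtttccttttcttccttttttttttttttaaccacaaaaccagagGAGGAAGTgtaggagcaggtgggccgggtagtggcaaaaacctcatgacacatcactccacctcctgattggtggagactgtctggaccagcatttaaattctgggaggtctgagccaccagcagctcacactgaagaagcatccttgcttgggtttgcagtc
Trem2: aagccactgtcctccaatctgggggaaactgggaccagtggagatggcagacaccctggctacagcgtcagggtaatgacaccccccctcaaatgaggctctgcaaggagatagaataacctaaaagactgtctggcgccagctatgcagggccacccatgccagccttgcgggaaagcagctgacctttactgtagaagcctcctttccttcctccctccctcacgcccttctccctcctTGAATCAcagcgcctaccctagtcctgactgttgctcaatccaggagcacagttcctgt
Gpnmb: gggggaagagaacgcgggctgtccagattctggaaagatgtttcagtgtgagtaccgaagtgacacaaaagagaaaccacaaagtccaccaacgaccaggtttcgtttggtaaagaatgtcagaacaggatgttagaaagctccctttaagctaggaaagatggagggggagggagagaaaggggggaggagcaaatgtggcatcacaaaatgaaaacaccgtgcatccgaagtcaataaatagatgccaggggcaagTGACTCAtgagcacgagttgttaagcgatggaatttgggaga
Cd68: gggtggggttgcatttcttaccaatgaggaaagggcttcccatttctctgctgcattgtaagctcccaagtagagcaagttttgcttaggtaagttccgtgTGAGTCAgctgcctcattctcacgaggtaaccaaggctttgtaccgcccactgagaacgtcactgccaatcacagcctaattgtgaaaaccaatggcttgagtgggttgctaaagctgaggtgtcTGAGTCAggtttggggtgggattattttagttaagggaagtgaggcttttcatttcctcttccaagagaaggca
The PU.1 letters were in 1 of the 10 windows, 113 bases before the start of Spp1, and in 3.2% of 32851 windows of the same length. The letters TGANTCA were in 5 of the 10 windows, those of Trem2, Cst7, Itgax, Gpnmb and Cd68 (2 matches), and in 7.81% of all windows. The matches in Itgax, Gpnmb and Cd68 had the C or G of the AP-1 site in the middle. Those in Trem2 (TGAATCA) and Cst7 (TGATTCA) did not. The E-box CACGTG (7.15% of all windows) and CATGTG (14.2%) were in none of the 10. A match shows that the letters are present and nothing on binding.

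The first comparison asked how the 10 genes changed from 3 to 14 dpl, as the mean over both sexes and both treatments. The RNAs for osteopontin, galectin-3, CD68 and the TREM2 adaptor were lower at 14 than at 3 dpl. Spp1, Lgals3, Cd68 and Tyrobp passed the test, all downwards, which is 4 of 10 against 1.63% of all genes lower and 2.37% changed in either direction (edgeR's quasi-likelihood test, Benjamini-Hochberg adjusted p under 0.1, used throughout). None of the 10 rose, 9 had a fold change below 0, and their median log2 fold change was -0.67 against 0.01 over all genes.

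Spp1 was at 26.3 to 134 CPM at 3 dpl (median 41.3, n = 15), at 21.1 to 52.5 CPM at 7 dpl (median 27.9, n = 15) and at 18.8 to 34.03 CPM at 14 dpl (median 23.9, n = 13). Most values at 3 dpl were above the highest value at 14 dpl, while the lowest libraries at 3 dpl lay within the range of 14 dpl. Spp1 fell from 3 to 7 dpl (log2 fold change -0.93 ± 0.16, SE, 1.90-fold, adjusted p = 0.0116) and was the only gene of all 18197 to pass the test between these days (0.0055%). From 7 to 14 dpl its change was -0.16 ± 0.16 (adjusted p = 0.755). Whether these steps differ was not tested. Over 3 to 14 dpl it fell by 1.09 ± 0.16 on the log2 scale (2.12-fold, adjusted p = 0.000167).
At 3 dpl, the male controls held 134, 39.1, 36.1 and 30.4 CPM, the SCFA-treated males 29.6, 38.5 and 47.5 CPM, the female controls 69.0, 34.1 and 72.1 CPM and the SCFA-treated females 64.4, 56.2, 78.7, 26.3 and 41.3 CPM. Female libraries of both treatments and 1 male control library made up the upper end, and the groups overlapped. Without male control replicate 1, SCFA-treated female replicate 2 and female control replicate 2 of 7 dpl, the fall of Spp1 to 7 dpl was 0.79 on the log2 scale (log2 fold change -0.79, adjusted p = 0.0142). The call at 7 dpl held with any 1 library left out (adjusted p 0.000924 to 0.0489) but not without the run term (0.292) or in the first run alone (0.175), with log2 fold changes of -0.80 and -0.84. The annotated gene Gm42793 lies over Spp1 on the same strand, so that reads of both cannot be told apart.

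Lgals3, which encodes the sugar-binding protein galectin-3 of phagocytic cells, was at 1.957 to 53.0 CPM at 3 dpl (median 4.51), 1.04 to 7.99 CPM at 7 dpl (median 3.59) and 1.19 to 3.17 CPM at 14 dpl (median 2.01). Most libraries at 3 dpl were above the highest at 14 dpl, in the first run without exception. It fell by 1.52 ± 0.30 on the log2 scale from 3 to 14 dpl (2.87-fold, adjusted p = 0.0066). Without the 3 libraries that stood apart the log2 fold change was -0.99 (adjusted p = 0.00495). With SCFA-treated female replicate 2, at 53.0 CPM, left out alone it was -1.12 (0.00134), and with male control replicate 1, at 11.6 CPM, left out alone it was -1.42 (0.0163).

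Cd68, a glycoprotein of lysosome membranes in microglia and macrophages, was at 2.02 to 7.62 CPM at 3 dpl (median 3.77), 1.17 to 6.44 CPM at 7 dpl (median 2.84) and 0.985 to 3.37 CPM at 14 dpl (median 2.05). The median was lower on each later day, and the ranges overlapped. Its fall of 1.01 ± 0.20 on the log2 scale from 3 to 14 dpl (2.02-fold) had an adjusted p of 0.00524.

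Tyrobp, the signalling adaptor, had a log2 fold change of 0.03 ± 0.15 from 3 to 7 dpl. It was at 2.87 to 11.7 CPM at 3 dpl (median 5.51), 2.22 to 9.85 CPM at 7 dpl (median 6.39) and 1.87 to 7.82 CPM at 14 dpl (median 3.49). The medians of the second run were below those of the first on every day. Tyrobp fell from 3 to 14 dpl (log2 fold change -0.65 ± 0.15, adjusted p = 0.0255) and from 7 to 14 dpl (-0.68 ± 0.15, adjusted p = 0.0966), there as 1 of 11 genes of all tested (0.0604%). The second of these calls was lost when any of 36 of the 43 libraries was left out (adjusted p 0.0394 to 0.303).

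The receptor Trem2 itself did not pass the test, at 2.02 to 8.39 CPM at 3 dpl (median 4.42) and 2.84 to 6.14 CPM at 14 dpl (median 3.58), with a log2 fold change of -0.29 ± 0.16 (adjusted p = 0.368). Gpnmb was at 8.89 to 42.1 CPM at 3 dpl (median 18.5) and 3.97 to 21.3 CPM at 14 dpl (median 13.9), a log2 fold change of -0.69 ± 0.24 (adjusted p = 0.152). Both overlapped between days over most of their range. Clec7a (-0.38 ± 0.28), Cst7 (-0.42 ± 0.41) and Itgax (-1.01 ± 0.46) did not pass the test, and Lpl, the enzyme that releases fatty acids from lipoproteins, was the only one of the 10 with a value above 0 (0.09 ± 0.11).

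**Figure D2:**
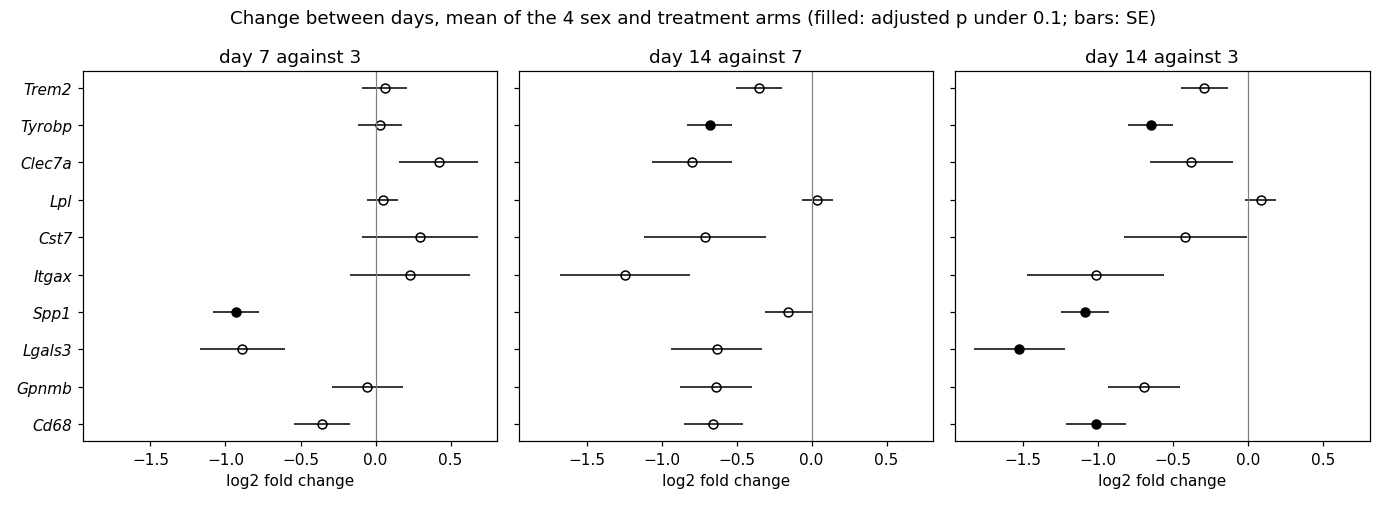
Log2 fold change between days for the 10 genes, as the mean of the 4 arms of sex and treatment, with bars for the standard error and filled points for an adjusted p under 0.1. From 3 to 7 dpl only Spp1 is filled, at -0.93, while from 7 to 14 dpl 9 of the 10 genes lie below 0 with Tyrobp filled at -0.68.

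From 3 to 7 dpl Lgals3 had the next lowest value after Spp1 (-0.89 ± 0.28, adjusted p = 0.605), and the median of the 10 genes was 0.04. From 7 to 14 dpl 9 of 10 genes had values below 0 with a median of -0.65, and 7 had an unadjusted p under 0.05 against 10.3% of all genes. Whether the genes differ from each other in timing was not tested. These time contrasts share libraries.

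Within single arms fewer calls were made. In SCFA-treated females Spp1 (log2 fold change -0.85), Lgals3 (-2.44) and Lpl (-0.47) fell from 3 to 7 dpl, 3 of 10 against 17.5% of all genes (10.1% higher), and Spp1 (-1.02) and Lgals3 (-2.49) fell from 3 to 14 dpl, 2 of 10 against 15.4% (7.26% higher). Without SCFA-treated female replicate 2 at 3 dpl, none of the 10 passed from 3 to 7 dpl (Spp1 -0.88, adjusted p = 0.107, and Lgals3 -1.02, 0.123, against 3.37% of all genes), and only Spp1 did from 3 to 14 dpl (-1.04, 0.0815, against 2.49%). In SCFA-treated males Tyrobp fell from 7 to 14 dpl (-1.20 ± 0.30, adjusted p = 0.062), 1 of 10 against 1.4% of all genes. In the control males none of the 10 passed the edgeR test from 3 to 7, 7 to 14 or 3 to 14 dpl (0.011%, 0% and 0.0055% of all genes), with 1, 4 and 4 at an unadjusted p under 0.05 and 1, 0 and 2 called by DESeq2, which gave no adjusted p to 3 of them from 3 to 7 dpl. In the control females there were none either (0%, 0.0055% and 0%), with 1, 1 and 2 at an unadjusted p under 0.05 and 0 called by DESeq2, which gave no adjusted p to 7 of them from 7 to 14 dpl. The same held for SCFA-treated males from 3 to 7 dpl (0.011%, all of it higher) and 3 to 14 dpl (0%) and for SCFA-treated females from 7 to 14 dpl (0%), with 1, 4 and 1 at an unadjusted p under 0.05 and 0 called by DESeq2, 2 of them without an adjusted p in the first case. No gene of the 10 had a different time course with SCFA in the test of that difference (0, 0.022 and 0% of all genes, with 2, 2 and 1 of the 10 at an unadjusted p under 0.05 from 3 to 7, 7 to 14 and 3 to 14 dpl, and 0 by DESeq2, which gave no adjusted p to 3, 8 and 0 of them).

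Of 23 further DAM and lysosome genes tested, 8 fell from 3 to 14 dpl and none rose, with a median log2 fold change of -0.20, and the same 8 genes were called without the 3 libraries that stood apart. Lyz2, the lysozyme of myeloid cells (-1.37, adjusted p = 0.000321), Ccl6, a chemokine (-1.12, 0.000752), Plin2, a coat protein of lipid droplets (-0.56, 0.00407), and Cd52 (-1.26, 0.00444) had the smallest adjusted p. Of 17 genes of TREM2 signalling and its regulators, only Spi1, which encodes PU.1, fell (-0.76 ± 0.22, adjusted p = 0.0742), and none did without these 3 libraries. Of the 12 homeostatic microglia markers, Fcrls (-1.27, adjusted p = 4.2e-05) and Olfml3 (-0.43, 0.0314) fell and all 12 had values below 0 (median -0.43).
Markers of other cells were measured beside them. Of 8 monocyte and macrophage genes, F13a1 (-1.26, adjusted p = 0.0253) and Ccr2 (adjusted p = 0.00352) fell, the latter with too few reads for a fold change. The summed level of the 8 genes was 13.6 to 21.8 CPM at 3 dpl and 9.58 to 17.3 CPM at 14 dpl. This sum is mostly Lyve1, with a median of 195 reads against 21 for the next, Mrc1. Of the Müller glia and astrocyte genes, Gfap (-1.02, adjusted p = 0.00443) and Vim (-0.53, 0.0532) fell, 2 of 7. The summed level of 7 pigment cell markers was 25.6 to 261 CPM at 3 dpl and 23.6 to 85.7 CPM at 14 dpl. No pigment cell gene passed the test, but all 7 had values below 0, 5 of them with an unadjusted p under 0.05, and their median of -0.60 was close to that of the 10 genes. All 6 RPE markers were below 0 (median -0.34). With the pigment and RPE marker level as a covariate, Spp1 (-0.94, adjusted p = 0.00553) and Cd68 (-0.89, 0.0579) still passed the test, and Lgals3 (-0.96, 0.141) and Tyrobp (-0.59, 0.148) did not.

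The next comparison was SCFA against control within each sex and day. In males at 7 dpl Trem2 and Gpnmb were lower with SCFA. They were the 2 genes of the 10 that passed the test, against 22.2% of all genes changed and 9.1% lower. The count of 2 of 10 is near the share of all genes changed. The 10 genes had a median log2 fold change of -0.44, against -0.02 over all genes.

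Trem2 was at 6.09, 6.21 and 11.9 CPM in the male controls and at 4.86, 4.32, 5.12, 2.34 and 4.40 CPM in the SCFA-treated males at 7 dpl. Every treated library was below every control library, in CPM that are not adjusted for the run. These controls were all in the first run of columns, and SCFA replicates 4 and 5 in the second. Trem2 was lower in the second run (log2 difference -0.41, adjusted p = 0.0401 in the edgeR test). The log2 fold change was -0.79 ± 0.29 (1.73-fold lower, adjusted p = 0.0562). Gpnmb was at 23.5, 36.7 and 31.5 CPM in controls and at 9.34, 18.5, 15.8, 9.40 and 10.4 CPM with SCFA, again with no overlap, and fell by 1.19 ± 0.44 on the log2 scale (adjusted p = 0.0638). Non-overlapping lower values in this comparison were found in 8.63% of all genes. The Trem2 call was lost without male control replicate 3 (log2 fold change -0.40, adjusted p = 0.488) or SCFA replicate 4, and that of Gpnmb without male control replicate 2 or 3 or SCFA replicate 1 (adjusted p up to 0.2).
The summed pigment cell markers were 77.7 to 147 CPM in these controls and 34.6 to 81.7 CPM with SCFA, with Pmel and Mlana among the called genes (2 of 7), and the summed RPE markers were 456 to 536 and 207 to 382 CPM, with none of the 6 called. The 12 homeostatic markers summed to 64.9 to 85.7 and 62.7 to 86.0 CPM, and overlapped. Sums of the Müller glia and astrocyte genes did not overlap, at 3426 to 4454 CPM in controls and 4520 to 8920 CPM with SCFA, with Glul and Rlbp1 called higher and Lcn2 lower, 3 of 7. Over all libraries Glul had the most reads of these 7, with a median of 51644 against 14280 for the next, Dkk3. The photoreceptor sum was 68113 to 70929 CPM in controls and 44740 to 93783 CPM with SCFA, lowest in SCFA replicates 3 and 1. The part of these cells in the Trem2 and Gpnmb values was not tested. With the pigment and RPE level as a covariate, the log2 fold change of Trem2 was -0.76 (adjusted p = 0.0692) and that of Gpnmb -0.86 (0.079).

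The other 8 genes did not pass the test in males at 7 dpl. Cst7 had a log2 fold change of -1.48 ± 0.67 (adjusted p = 0.131), Itgax -0.70 ± 0.73 and Cd68 -0.69 ± 0.36 (0.198). Spp1 had a value above 0 (0.38 ± 0.30, 0.433). Clec7a was at 1.64 to 2.98 CPM in controls and 0.50 to 4.91 CPM with SCFA, and the groups overlapped. Tyrobp was at 6.69, 6.21 and 9.85 CPM in controls and at 7.16, 7.29, 9.27, 2.22 and 3.38 CPM with SCFA, where the last 2 come from the later columns, and its change was -0.13 ± 0.28 (0.812).
Of the further genes of the state, Igf1 (1.32, adjusted p = 0.00025), Cadm1 (0.47, 0.0153) and Cd9 (0.59, 0.0176) rose and Csf1 (-0.52, 0.0501) and Ctsz (-0.54, 0.0694) fell, 5 of 23. Both this count and the next are near the 22.2% of all genes called. Among the TREM2 pathway genes Grn, which encodes the lysosomal protein progranulin, fell (-0.65, adjusted p = 0.00192), and Pik3r1 (0.50, 0.00418), Adam10, the protease that sheds TREM2 (0.45, 0.0251), and Mitf (0.46, 0.0948) rose, 4 of 17. Of the homeostatic markers Fcrls fell (-0.75, adjusted p = 0.0954), 1 of 12.

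In males at 14 dpl none of the 10 passed the test, against 7.13% of all genes (3.28% higher), 1 had an unadjusted p under 0.05 (Lpl), and DESeq2 called 1 of them (Lpl, adjusted p = 0.0984). Lpl also passed the edgeR test when female control replicate 2 or 3 of 7 dpl was left out, which changes the shared spread. A fit of only the libraries that the study listed for this pair called 4 of the 10. The share of all genes called in that fit was not taken. Trem2, Tyrobp, Lpl and Spp1, 4 of the 10, were lower in every SCFA library than in any control library, against 17.8% of all genes. Lpl was at 16.2, 13.9 and 16.9 CPM in controls and at 8.06, 11.4 and 11.9 CPM with SCFA (log2 fold change -0.58 ± 0.22, adjusted p = 0.126). Trem2 was at 4.87, 6.14 and 5.32 CPM in controls and at 2.94, 4.16 and 3.58 CPM with SCFA (-0.61 ± 0.33, 0.28). Summed RPE markers did not overlap here either, at 306 to 484 CPM in controls and 174 to 254 CPM with SCFA, with all 6 below 0 and Rpe65 called. The 7 ganglion cell markers, too, were all below 0 (median log2 fold change -0.45), with Thy1 and Slc17a6 called, and their sums were 1149 to 1422 CPM in controls and 802 to 1084 CPM with SCFA, without overlap. The part of these cells in the values of Trem2, Tyrobp, Lpl and Spp1 was not tested.
In males at 3 dpl all 10 had values below 0 (median -0.43, against 49.5% of all genes below 0), none passed the test (0.022% of all genes, 0.0165% higher), 1 had an unadjusted p under 0.05 (Lpl) and DESeq2 called 0, with no adjusted p for Cst7 and Itgax.

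In females at 3 dpl Lgals3 was the only one of the 10 to pass the test, against 8.11% of all genes (4.78% higher). It was at 4.76, 4.51 and 5.17 CPM in controls and at 5.25, 53.0, 6.52, 2.52 and 2.95 CPM with SCFA. A single treated library held the high value, and the other 4 lay on both sides of the controls. The log2 fold change of 1.70 ± 0.55 (adjusted p = 0.0693) became 0.16 (0.881) without SCFA-treated female replicate 2, lost its call also without any 1 of the 3 control libraries, and was 0.01 (0.995) with the pigment and RPE level as a covariate. That library held 891 CPM of Ttr and 47.7 CPM of Pmel, and 3 of 7 pigment and 3 of 6 RPE genes rose in this comparison. Their summed levels were 40.4 to 65.1 CPM and 284 to 416 CPM in controls, and 30.8 to 261 CPM and 214 to 1459 CPM with SCFA. The median log2 fold change of the 10 genes was 0.33, and 9 had a value above 0. Of the further genes of the state 6 of 23 rose. Among them was Fabp5, a carrier of fatty acids (4.83 ± 1.07, adjusted p = 0.0166), whose 66596 reads in the same SCFA library stood against a median of 552 reads over the 43 libraries. Without that library none of the 23 genes, of the pigment cell markers or of the RPE markers was called, with 0.418% of all genes changed.

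In females at 7 dpl and 14 dpl none of the 10 passed the test (0.643% and 0% of all genes), with 1 (Gpnmb) and 0 at an unadjusted p under 0.05, and DESeq2 called 0, with no adjusted p for 7 of them at 7 dpl. Gpnmb at 7 dpl was at 53.6, 25.1 and 8.51 CPM in controls and at 9.13, 22.5, 13.9 and 11.2 CPM with SCFA (log2 fold change -0.99 ± 0.46, adjusted p = 0.292). The groups overlapped, with control replicate 3 the lowest of all. The summed pigment cell markers were 26.2 to 237 CPM in these controls and 27.8 to 72.3 CPM with SCFA. Without female control replicate 2, which held Y-linked reads, the log2 fold change was -1.10 (0.538), and that of Trem2 moved from -0.52 ± 0.31 (0.415) to -0.28 (0.853). Without control replicate 3, Gpnmb and Lpl passed the test. At 14 dpl the values ran from -0.14 for Clec7a to 1.11 for Cst7.

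**Figure D3:**
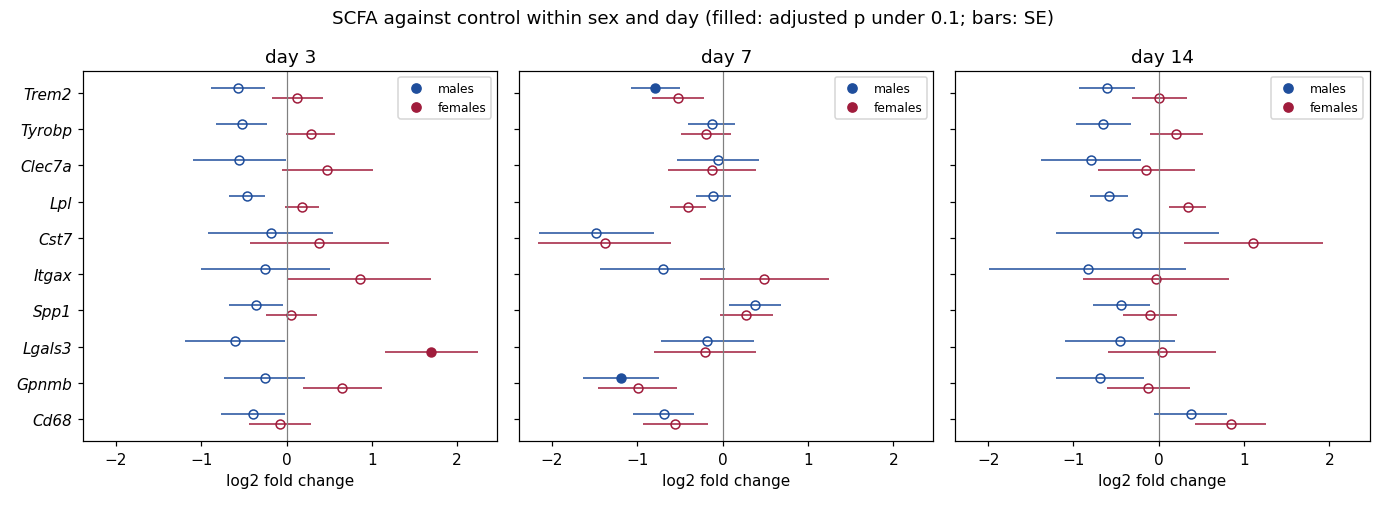
Log2 fold change of SCFA against control for the 10 genes in males (blue) and females (red) at 3, 7 and 14 dpl, with bars for the standard error and filled points for an adjusted p under 0.1. Filled are Trem2 (-0.79) and Gpnmb (-1.19) in males at 7 dpl and Lgals3 (1.70) in females at 3 dpl.

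Whether SCFA acted differently in males and females was tested with an interaction term. None of the 10 passed at 3, 7 or 14 dpl (0% of all genes on each day), with 2, 0 and 1 at an unadjusted p under 0.05 and 0 called by DESeq2. At 3 and 14 dpl all 10 had a lower fold change in males than in females, with medians of -0.75 and -0.63, against 50.7% and 48.2% of all genes. At 7 dpl 5 of 10 did, against 48.5%. The 10 genes are measured in the same libraries and are not independent results. The 3 dpl values include SCFA-treated female replicate 2, which stood apart. Lpl had the smallest p at 14 dpl (-0.92 ± 0.31, adjusted p = 0.485), and for Trem2 and Gpnmb at 7 dpl the differences were -0.27 ± 0.42 (0.918) and -0.20 ± 0.64 (0.967), so that an effect confined to males was not shown. Between male and female controls none of the 10 passed on any day (0.0495%, 0.0275% and 4.65% of all genes), with 0 at an unadjusted p under 0.05 and 0 called by DESeq2, which gave no adjusted p to 5 of them at 14 dpl.

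Averaged over the 6 pairs of sex and day, Trem2 was lower with SCFA, with a log2 fold change of -0.39 ± 0.13 (1.31-fold lower, adjusted p = 0.0185), and so was Gpnmb, with -0.43 ± 0.19 (0.0947). These were 2 of 10, against 34.7% of all genes changed and 17% lower, a count near the share lower and below the share changed. DESeq2 called Trem2 (adjusted p = 0.0101) and not Gpnmb (0.116). Of the 7 ganglion cell markers, 5 were called lower in the same average and all 7 were below 0 (median -0.25), against 1 of 12 homeostatic markers (Csf1r) called lower and none of the pigment cell and RPE markers. Of the 7 Müller glia and astrocyte genes 2 rose and 1 fell. The part of these cells in the Trem2 and Gpnmb values was not tested. This average holds the libraries of the single comparisons and adds no independent sample. Leaving out any 1 library kept the Trem2 call (adjusted p up to 0.0546), whereas Gpnmb lost it with any of 26 libraries left out.

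How the genes varied together was described by Pearson's r of log2(CPM + 1) over the 43 libraries after group and run had been removed. The libraries differ in depth and in their level of pigment cell RNA, which all genes share, so that r is given as a description. Trem2 and its adaptor Tyrobp were the pair with the highest r (0.68), followed by Cst7 and Cd68 (0.62) and Trem2 and Cd68 (0.59). Without SCFA-treated female replicate 2 at 3 dpl the first pair was the same (0.69), and Lgals3 and Cd68 came next (0.68), before Cst7 and Cd68 (0.65) and Trem2 and Lgals3 (0.63). Lpl stood outside, with r between -0.08 and 0.37 to the other 9. The genes most like Trem2 were C1qa (0.83) and C1qc (0.75), subunits of complement C1q made by microglia, and Procr (0.76). Tyrobp was most like C1qa (0.80), Fcer1g (0.76), the Fc receptor gamma chain, and Rgs10 (0.75). Cd68 was closest to Lyz2 (0.71), Laptm5 (0.70) and Mpeg1 (0.69), genes of myeloid lysosomes and phagocytosis, and Spp1 to Arg1 (0.74), H19 (0.68) and Rpl31-ps8 (0.68). Clec7a had Dock2 (0.73), Hebp1 (0.72) and Pex5 (0.72), Cst7 had Klhl6 (0.62), Cd68 (0.62) and Plin2 (0.60), and Itgax had Chil1 (0.77), Ppp1r18os (0.67) and Lox (0.65).

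Gpnmb was most like Dct (0.84) and Mlana (0.80), both pigment cell genes, and Tuba1c (0.78), and its median r to the 7 pigment cell markers was 0.75 (0.72 without SCFA-treated female replicate 2 at 3 dpl), against 0.25 to the homeostatic microglia markers. Lgals3 was most like Lgals1, Hmox1 and Vit (0.87 each), which became Gusb (0.70), C1qa (0.69) and Vit (0.68) without that library. Its r to Cd68 went from 0.42 to 0.68, to Trem2 from 0.39 to 0.63 and to Tyrobp from 0.27 to 0.62 when that library was left out, and its median r to the pigment cell markers from 0.43 to 0.22. Lpl was most like Mgll (0.85), Gdf11 (0.82) and Cntnap2 (0.79), with a median r of 0.48 to the pigment cell markers and 0.33 to the homeostatic markers. For Trem2 the median r was 0.12 to the pigment cell markers, 0.33 to the homeostatic ones and 0.36 to the ganglion cell markers, and for Tyrobp 0.08, 0.25 and 0.31.

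**Figure D4:**
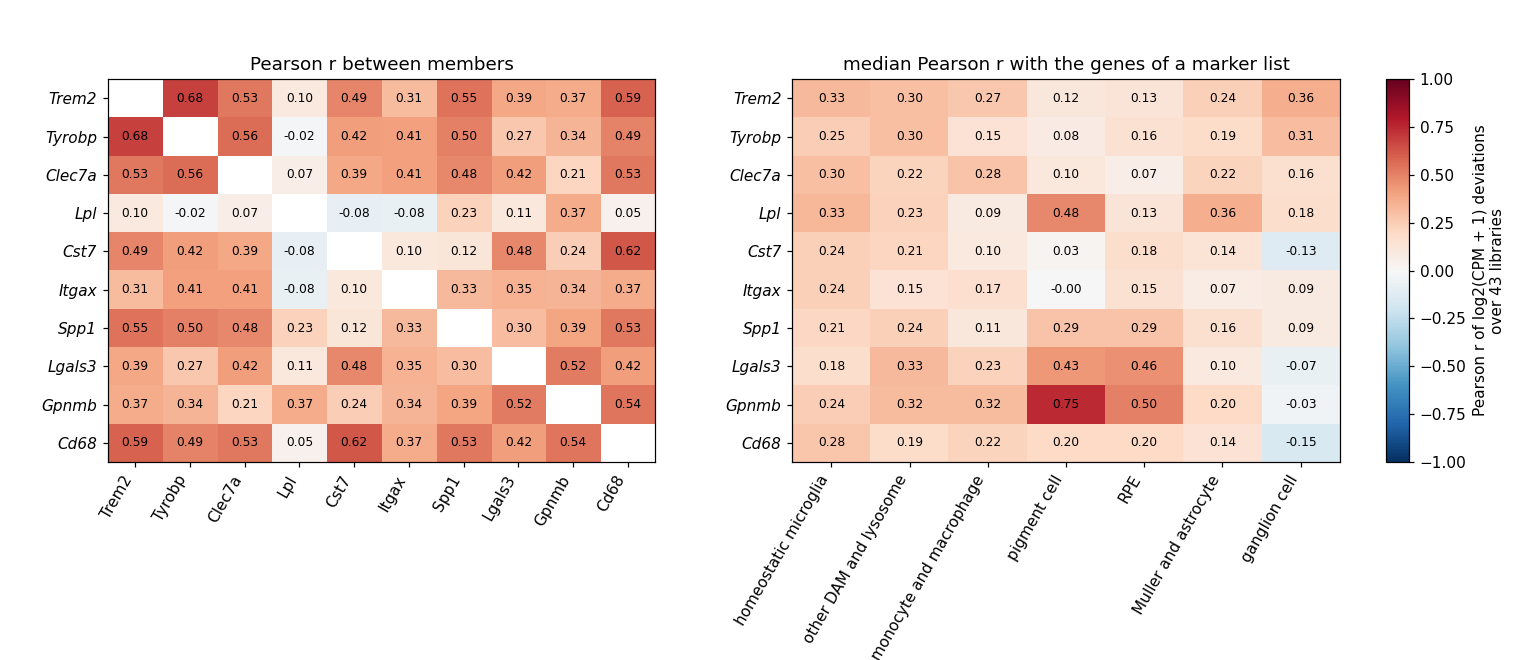
Pearson's r of deviations from group and run means over 43 libraries, between the 10 genes (left) and as the median r to the genes of 7 marker lists (right), with red for positive and blue for negative r. The darkest cell between lists is Gpnmb with pigment cell markers (0.75), and between genes Trem2 with Tyrobp (0.68).

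**Figure D5:**
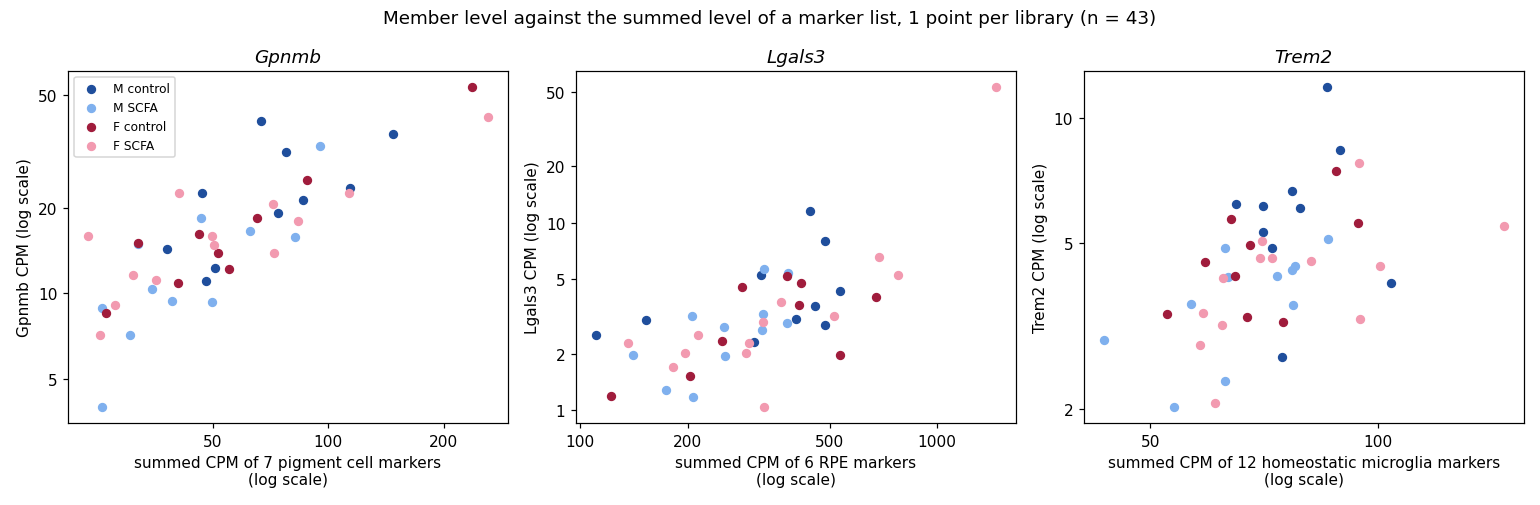
CPM of Gpnmb, Lgals3 and Trem2 against the summed CPM of 7 pigment cell, 6 RPE and 12 homeostatic microglia markers, with 1 point per library (n = 43), log scales and colours for sex and treatment. The highest Gpnmb values, 53.6 and 42.1 CPM, belong to the 2 libraries with the highest pigment cell sums, 237 and 261 CPM, and the Lgals3 value of 53.0 CPM belongs to the library with the highest RPE sum, 1459 CPM.

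By the annotation of GRCm38, Trem2 is on chromosome 17 (48346401 to 48354147), Tyrobp (30413760 to 30417585) and Itgax (128129547 to 128150657) on chromosome 7, and Clec7a (129461591 to 129472779) and Gpnmb (49036546 to 49070929) on chromosome 6. Lpl is on chromosome 8 (68880491 to 68907448), Cst7 on chromosome 2 (150570415 to 150578944), Spp1 on chromosome 5 (104435118 to 104441050), Lgals3 on chromosome 14 (47367751 to 47386160) and Cd68 on chromosome 11 (69664213 to 69666153). None of the 10 but Spp1 overlapped another annotated gene.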

How the data were processed

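RNA of lasered mouse retinas was sequenced in 43 libraries, grouped by the submitters' library names into 12 groups of sex, treatment and day. The authors deposited whole-number read counts per gene without normalization. The submitters' processing notes name the build mm10 and DESeq2, while the aligner, counter, annotation and strand setting are not given in the sources used here. Totals of 14826957 to 21507527 counts set the counting precision, and the floor on low read counts covers counting error only. The ± values are standard errors from edgeR's quasi-likelihood test and include the spread between libraries. Genes were named and placed by GENCODE M21 (GRCm38).

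Genes were filtered with filterByExpr, scaled by TMM and tested by quasi-likelihood in edgeR 4.0.16 (R 4.3.3). A single model over the 43 libraries held the group and the column run (31 and 12). P-values were adjusted by Benjamini-Hochberg over 18197 genes, and a call was an adjusted p under 0.1. The standard error was the log2 fold change divided by the square root of F. Replicates are pools of different animals. No 2 libraries of a group agreed within sampling noise (59 pairs, chi-square per gene at least 2.79). The test was tested on simulated data. Alternatives were DESeq2 1.42.0, RLE scaling, other filters and thresholds, no run term, the first run alone, the replicate number as a block, the study's listed libraries and each library left out. After the data had been seen, 3 libraries were left out together, and a pigment and RPE marker level was added as a covariate.

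The 10 genes and all gene lists were chosen with earlier results of these data known. All 10 genes were counted in every comparison, and values are printed for those called and for some of the others. Of each list reported, the count called is given with up to 4 genes of smallest adjusted p and those needed beside a result. For each gene the 3 genes with the highest r are named. Motif letters were searched in RefSeq windows. Figures were drawn with matplotlib 3.10.9 in Python 3.11.15.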

Additional observations from a re-analysis of the deposited data

Results flagged for a closer look

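In groups of 4 or 5 libraries, 1 library stood apart from the rest of its group in 6 of 50 combinations of gene and group, where chance gives about 1 in 20. In SCFA-treated males at 7 dpl, Trem2 in replicate 4 was 2.34 CPM, with 4.32 CPM as the nearest value, and Clec7a in replicate 3 was 4.91 CPM, with 1.34 CPM as the nearest. Spp1 in male control replicate 1 at 3 dpl was 134 CPM (nearest 39.1 CPM). Lgals3 in SCFA-treated female replicate 2 at 3 dpl was 53.0 CPM (nearest 6.52 CPM), in the library with the highest summed RPE markers. Gpnmb in SCFA-treated female replicate 3 at 14 dpl was 7.16 CPM (nearest 14.79 CPM). Cd68 in SCFA-treated female replicate 2 at 7 dpl was 3.49 CPM (nearest 2.11 CPM).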

How the results depend on the processing

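The fold changes of genes called among the 10 kept their direction under each alternative run, while fold changes that were not called could change sign, such as Cst7 in females at 3 dpl, at 0.38 with all libraries and -0.18 without SCFA-treated female replicate 2. The counts of genes called among the 10 stayed within 1.5 times the count given in 147 of 182 comparisons by setting. Most of these comparisons had a count of 0, which another 0 keeps, so that the figure says little on counts above 0. The changes of those follow. From 3 to 7 dpl the count of 1 became 0 with a fold change threshold, without the run term and in the first run alone, and 2 without a filter on low counts. From 7 to 14 dpl the count of 1 became 6 without that filter and 0 at an adjusted p under 0.05, with a fold change threshold, without the run term, in the first run alone, without the 3 libraries that stood apart and with the pigment and RPE covariate. From 3 to 14 dpl the count of 4 became 2 in the first run alone (Spp1 and Cd68) and 2 with the covariate. For SCFA in males at 7 dpl the count of 2 became 0 at an adjusted p under 0.05, and 1 with a fold change threshold and in the first run alone. In males at 14 dpl the count of 0 became 1 with DESeq2, 2 without a filter, 1 without the 3 libraries, and 4 in the pairwise fit of the study's listed libraries. In females at 3 dpl the count of 1 became 2 without a filter and 0 at an adjusted p under 0.05, without the run term, without the 3 libraries and with the covariate. In females at 7 dpl it became 1 without a filter. For SCFA over all pairs the count of 2 became 1 with DESeq2, RLE scaling or an adjusted p under 0.05, and 0 with a fold change threshold. Without a filter, the sex difference in the response at 3 dpl had 2 calls and the control sexes at 3 dpl 1. For the fits without a filter and the pairwise fit the share of all genes called was not taken, so that their counts lack a background. The causes were not tested.

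With 1 library left out, the counts ran from 1 to 1, 0 to 1 and 4 to 5 for 3 to 7, 7 to 14 and 3 to 14 dpl, from 0 to 3 and 0 to 1 for SCFA in males at 7 and 14 dpl, from 0 to 1 and 0 to 2 in females at 3 and 7 dpl, from 1 to 3 over all pairs, and stayed at 0 in the other comparisons of SCFA and sex. Deviations from group means had a mean r of 0.0727 between libraries of different groups with the same replicate number (209 pairs, over 0.1 in 39.7%). Between libraries with different numbers it was -0.0231 (635 pairs, over 0.1 in 28.7%). With the run removed as well, the means were 0.0154 and -0.00551. Whether the number pairs samples was not tested. With the replicate block the counts were 0 from 3 to 7 and 7 to 14 dpl and 1 for SCFA over all pairs, and Spp1 from 3 to 7 dpl had an adjusted p of 0.684. Depth limits Cst7 and Itgax most.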
